A study of Mus musculus with 8 samples.

Results

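The 10 genes described here encode ubiquitin ligases, or the substrate-recognizing subunits of such ligases, that are known from muscle atrophy. They were chosen by name: Trim63, Trim54, Trim55, Fbxo32, Fbxo30, Fbxo31, Fbxo40, Fbxo21, Nedd4 and Stub1 are 10 of the 43346 genes in the deposited count table, and all 10 were among the 16111 genes with enough counts to be tested. Their mRNA was measured by RNA sequencing of ventricular tissue from 8 male C57BL/6 mice. At 7 weeks of age, 4 mice were injected with 1000000 LLC1 cells, a Lewis lung carcinoma line of mouse origin, and 4 received the PBS vehicle alone. Hearts were taken 14 days after the injection. No transgene is named for the mice, and the animals of both groups were of the same sex and age. They are named here by their group and replicate code, LLC1 1-2, 1-3, 1-5 and 2-2 and PBS 1-1, 1-3, 2-1 and 2-5. The comparison addresses whether transcripts of the protein degradation machinery differ in the hearts of tumor-bearing mice.

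Ubiquitin ligases attach ubiquitin to chosen proteins and so mark them for the proteasome. In wasting muscle, MuRF1 (Trim63) and atrogin-1 (Fbxo32) are the classic induced ligases, and FOXO transcription factors and the glucocorticoid receptor are known to switch on their genes. MuRF1, MuRF2 (Trim55) and MuRF3 (Trim54) are RING-finger proteins that sit on the sarcomere and on microtubules, while F-box proteins carry a substrate to the SCF complex, in which a cullin scaffold holds a RING protein. Nedd4 is a HECT-type ligase and Stub1 encodes CHIP, a U-box ligase that works with heat shock chaperones.

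Promoter sequences are shown for 3 of the 4 members that rose in tumor-bearing mice, because the letters bound by FOXO factors and by the glucocorticoid receptor could be looked for in them. They are the 250 bases before the RefSeq start of the gene (build GRCm38.p6, the mm10 assembly), written 5′ to 3′ along the gene, with matched motifs in capitals. The table held windows for 8 of the 10 members and none for Fbxo32 and Trim55.
Trim63 (chr4:134314870-134315119, plus strand): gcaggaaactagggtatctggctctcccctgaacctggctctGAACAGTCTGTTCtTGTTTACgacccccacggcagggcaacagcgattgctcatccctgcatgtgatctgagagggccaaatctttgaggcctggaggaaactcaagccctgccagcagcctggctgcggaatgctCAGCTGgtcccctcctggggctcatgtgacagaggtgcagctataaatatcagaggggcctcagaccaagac
Trim54 (chr5:31116362-31116611, plus strand): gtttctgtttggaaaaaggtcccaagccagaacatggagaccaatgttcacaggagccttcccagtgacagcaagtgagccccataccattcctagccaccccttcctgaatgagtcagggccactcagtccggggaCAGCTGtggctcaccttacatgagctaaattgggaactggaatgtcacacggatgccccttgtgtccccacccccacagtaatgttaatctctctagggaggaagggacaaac
Fbxo31 (chr8:121578807-121579056, minus strand): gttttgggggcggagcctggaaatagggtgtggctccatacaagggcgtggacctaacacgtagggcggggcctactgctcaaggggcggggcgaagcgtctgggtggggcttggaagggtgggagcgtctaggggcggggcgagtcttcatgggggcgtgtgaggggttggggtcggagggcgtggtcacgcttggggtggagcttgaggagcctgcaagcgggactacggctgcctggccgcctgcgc
The motifs searched on both strands were GTAAACA for FOXO, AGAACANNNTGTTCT for the glucocorticoid receptor, TTCNNNGAA for STAT factors and CAGCTG, an E-box of myogenic factors. A looser receptor motif, GNACANNNTGTNC, was added after these sequences had been seen, and every match of the stricter form is also a match of the looser. In Trim63 the first capitals match this looser motif and begin 208 bases before the start. After 1 base they are followed by a FOXO match on the other strand, which begins 194 bases before the start, and an E-box begins 72 bases before it. The Trim54 window held an E-box that begins 113 bases before the start and no other of these motifs. The Fbxo31 window held none of the 5. Members that were not called had matches too, an E-box in both Fbxo40 windows and an E-box and a STAT match in 1 of the Nedd4 windows. Among 32851 RefSeq windows of the same length, the FOXO motif was in 3.17%, the looser receptor motif in 0.387%, the E-box in 13.0%, the STAT motif in 7.02% and the strict receptor motif in 0.00913%. The matches describe the letters only, and binding was not measured.

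The libraries held 15342214 to 19747596 counts in the LLC1 mice and 12480706 to 16192158 in the PBS mice, and the members had between 394 and 11985 counts per mouse. Levels are given as counts per 1000000 (CPM) after TMM normalization, with the SD of 4 mice per group. The FDR is the p-value of edgeR's quasi-likelihood test after Benjamini-Hochberg adjustment over the 16111 genes, and a gene was called where it was under 0.05. The tissue was ventricular muscle by its markers. The 8 cardiomyocyte markers summed to 98955 to 105541 CPM in LLC1 mice and to 88595 to 91248 CPM in PBS mice, without overlap. Of these 8, Mybpc3 and Myh6 were called higher, Actc1 and Ryr2 had log2 fold changes of -0.05 and -0.17, and Myh6 made up the larger part of the sum, at a mean of 54333 CPM in LLC1 and 45869 CPM in PBS mice. The 8 skeletal muscle markers summed to at most 4.49 CPM in any mouse, with Myh4 at 0 in all. Fibroblast markers summed to 924 to 1035 CPM in LLC1 and 1012 to 1491 CPM in PBS mice, with 3 of 6 called lower, and endothelial markers to 1183 to 1309 and 1251 to 1751 CPM, with 1 of 6 called lower. Leukocyte markers summed to 72.1 to 87.5 and 78.2 to 114 CPM, with 1 of 6 called lower, and the 4 markers of dividing cells summed to 2.04 to 4.49 CPM in LLC1 mice against 13.4 to 42.3 CPM in PBS mice. Genes rich in GC also tended to be higher in LLC1 mice, as the median log2 fold change went from -0.11 among the 3191 genes with the lowest GC content to 0.10 among the 3190 with the highest. In whole ventricle, a change in the number of cells of a type and a change in the RNA per cell cannot be told apart.

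Of the 10 ligase transcripts, 4 rose in tumor-bearing mice and none fell: Trim63, Trim54, Fbxo32 and Fbxo31 were called higher by edgeR's quasi-likelihood test, with increases of 1.27-fold to 1.42-fold. Over all genes tested, 8.73% were called in either direction, 4.12% higher and 4.61% lower. DESeq2 also called 4 members, and 10.8% of all genes. At an unadjusted p under 0.05 there were 6 members, all higher, and 25.5% of all genes, 12.4% higher and 13% lower. The count was 2 when libraries were scaled to total counts alone, when 1018 of all genes were called, 225 of them higher. With scaling to the cardiomyocyte markers, a setting chosen after seeing the data, the count was 1, when 4085 of all genes were called, 3912 of them lower. It was 1 without LLC1 1-3, LLC1 2-2 or PBS 1-3, when 634, 832 and 542 of all genes were called in place of 1406, and 2 without LLC1 1-5 or PBS 2-1, when 712 and 955 were called. The median log2 fold change of the 10 members was 0.20, against -0.01 over all genes tested. Counting each gene whose LLC1 values lay all above its PBS values, there were 4 members (Trim63, Trim54, Fbxo31 and Stub1), where 8.89% of all genes tested did so. No member had its LLC1 values all below its PBS values, which 8.27% of all genes did. By class, 2 of the 3 MuRF genes and 2 of the 5 F-box genes were called, but neither Nedd4 nor Stub1. Trim63, Fbxo32 and Fbxo31 are also on lists of changed transcripts that the study drew up from these same mice, so their direction is not independent evidence.

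**Figure D1:**
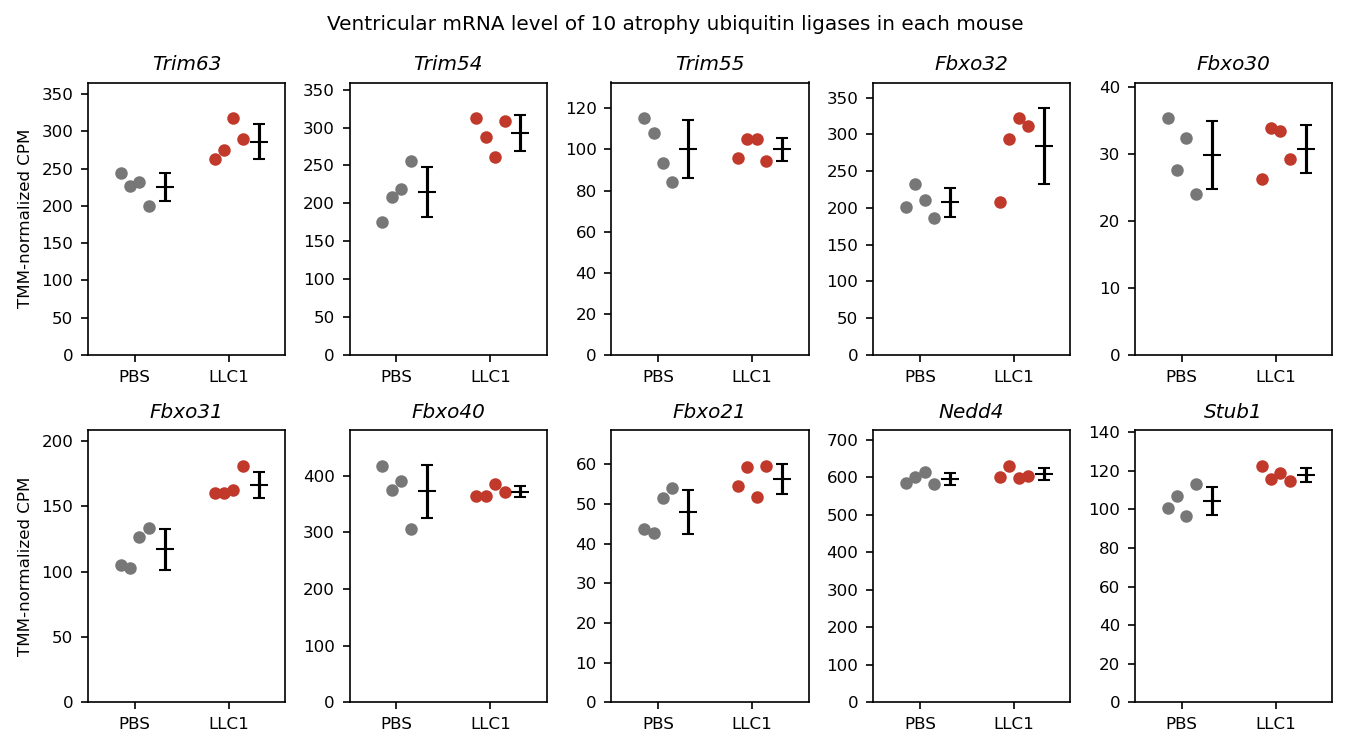
TMM-normalized CPM of each ligase transcript, 1 panel per gene, with PBS mice on the left and LLC1 mice on the right of each panel; points are mice, and the bar and error bar give the mean and SD (n = 4). For Trim63, Trim54, Fbxo31 and Stub1 the 4 LLC1 mice lie above the 4 PBS mice, whereas in the other 6 panels the groups overlap.

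**Figure D2:**
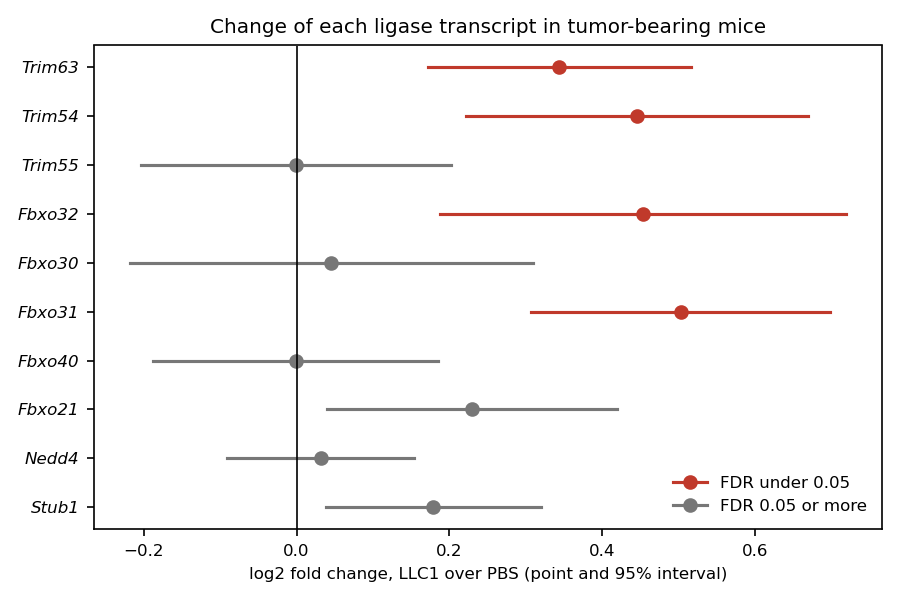
Log2 fold change of LLC1 over PBS mice for each transcript, with its 95% interval from edgeR's quasi-likelihood fit; red marks an FDR under 0.05. Trim63, Trim54, Fbxo32 and Fbxo31 are red and lie between 0.34 and 0.50, while Trim55 and Fbxo40 lie at 0.

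The MuRF genes were Trim63 (ENSMUSG00000028834, chromosome 4, 134315120 to 134329629, plus strand), Trim54 (ENSMUSG00000062077, chromosome 5, 31116712 to 31137630, plus strand) and Trim55 (ENSMUSG00000060913, chromosome 3, 19644474 to 19692421, plus strand), and their longest coding sequences in GENCODE M21 had 355, 366 and 545 codons. Trim63, whose protein targets thick-filament proteins such as myosin heavy chain, had 262, 275, 318 and 289 CPM in LLC1 1-2, 1-3, 1-5 and 2-2. In PBS 1-1, 1-3, 2-1 and 2-5 it had 244, 227, 231 and 200 CPM. Every tumor-bearing mouse was above every PBS mouse, and the closest pair was LLC1 1-2 and PBS 1-1. The means were 286 ± 23.7 and 225 ± 18.6 CPM (SD, n = 4 each). The log2 fold change of Trim63 was 0.34 (SE 0.08, 95% interval 0.17 to 0.52, FDR = 0.0213 in edgeR's quasi-likelihood test; exact permutation p = 0.0286, two-sided, the smallest that 4 against 4 mice allow). Its FDR was above 0.05 when LLC1 1-3 (0.0508), LLC1 1-5 (0.0665), LLC1 2-2 (0.0535) or PBS 1-3 (0.0652) was left out of the edgeR fit, and it was 0.0574 with offsets for GC content, at a log2 fold change of 0.31.

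Trim54, whose protein binds microtubules and the Z-disc, had 313, 287, 261 and 309 CPM in the LLC1 mice in the same order and 176, 208, 219 and 256 CPM in the PBS mice. The groups lay next to each other without overlap, with LLC1 1-5 only just above PBS 2-5. The means were 292 ± 23.7 and 215 ± 33.0 CPM (SD, n = 4 each), a log2 fold change of 0.45 (SE 0.10, 95% interval 0.22 to 0.67, FDR = 0.0217 in edgeR's quasi-likelihood test; exact permutation p = 0.0286, two-sided). The edgeR FDR was 0.0649 without LLC1 1-2, 0.0562 without LLC1 1-3, 0.0645 without LLC1 2-2, 0.0796 without PBS 1-3 and 0.05003, just past the limit, without PBS 2-1. Of the Trim54 exons, 26.6% are shared with Gm15469, an antisense gene on the other strand, and since the strand setting of the counting is not given, reads of the pair cannot be told apart there.

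Trim55, which encodes MuRF2, was not called. Its levels were 95.9, 105, 105 and 94.4 CPM in the LLC1 mice and 115, 108, 93.5 and 84.2 CPM in the PBS mice. The 4 LLC1 values lay inside the range of the PBS values. The means were both 100 CPM (SD 5.73 in LLC1 and 14.0 in PBS mice, n = 4 each), and the log2 fold change was -0.0009 (SE 0.09, FDR = 0.997 in edgeR's quasi-likelihood test; exact permutation p = 0.971, two-sided). Its 95% interval, -0.20 to 0.20, bounds the change.

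The ratios between MuRF transcripts within a mouse were compared after these values had been seen, in 4 pairs of genes, with the Fbxo32 to Trim63 ratio as the fourth. The count of Trim63 was 2.74, 2.63, 3.02 and 3.06 times that of Trim55 in the LLC1 mice and 2.11, 2.11, 2.47 and 2.37 times in the PBS mice. The groups did not overlap, at means of 2.86 ± 0.214 and 2.27 ± 0.186 (SD, n = 4 each; exact permutation p = 0.0286, adjusted p = 0.114 over the 4 pairs). For Trim54 over Trim55 the means were 2.94 ± 0.392 and 2.21 ± 0.646, and for Trim63 over Trim54 they were 0.987 ± 0.161 and 1.08 ± 0.248 (exact permutation p = 0.114 and 0.600, adjusted p = 0.229 and 0.600). The smallest p that 4 against 4 mice allow gives an adjusted p of 0.114 for a single separated ratio among 4, so the correction could not be passed by any alone. MuRF transcripts are alike in sequence, Trim54 and Trim63 matching at 74.3% over 828 bases and Trim55 at 70.5% with Trim54 and 69.5% with Trim63, and no transcript matched any of the 3 at 97% or more over 150 bases except Gm15469.

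**Figure D3:**
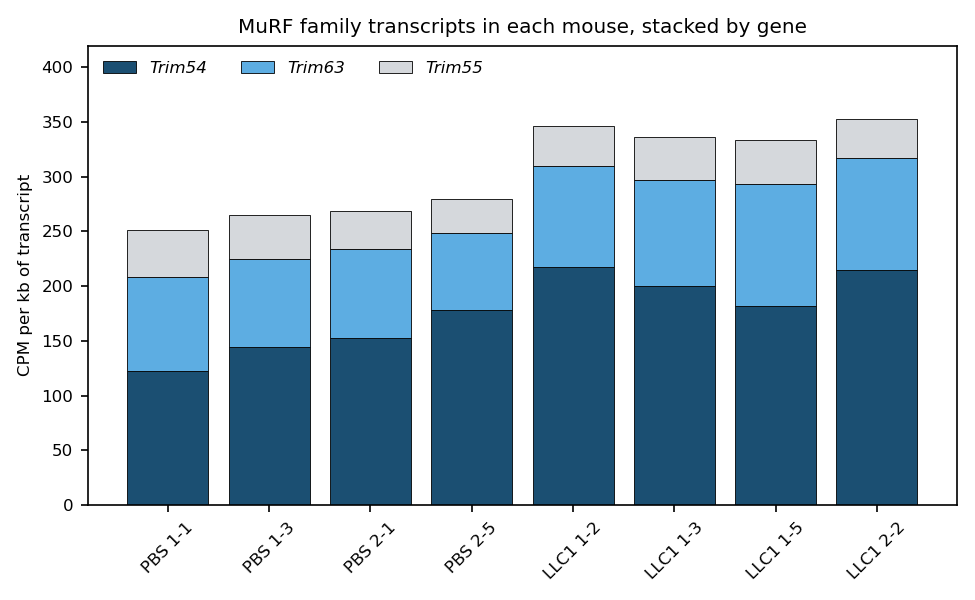
Levels of the 3 MuRF transcripts in CPM per kb of gene length (written as kb of transcript on the axis), stacked in 1 bar per mouse. The bars of LLC1 mice reach 333 to 352 and those of PBS mice 252 to 280, and Trim55 makes up 10.1% to 11.9% of the LLC1 bars and 11.3% to 17.2% of the PBS bars.

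Measured per length, so that genes can be set side by side, the summed MuRF level was 333 to 352 CPM per kb of gene length in LLC1 mice and 252 to 280 in PBS mice. Trim54 made up the largest share in each mouse, 54.6% to 62.9% in LLC1 and 48.7% to 63.6% in PBS mice. The shares of Trim63 were 26.7% to 33.5% and 25.1% to 34.1%.

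Among the F-box genes, Fbxo32 (ENSMUSG00000022358, chromosome 15, 58175879 to 58214892, minus strand) and Fbxo31 (ENSMUSG00000052934, chromosome 8, 121549440 to 121578806, minus strand) rose, and Fbxo30, Fbxo40 and Fbxo21 did not pass the test. Fbxo32, which encodes atrogin-1, had 208, 294, 322 and 312 CPM in LLC1 1-2, 1-3, 1-5 and 2-2. In PBS 1-1, 1-3, 2-1 and 2-5 it had 201, 233, 211 and 186 CPM. Tumor-bearing mice 1-3, 1-5 and 2-2 were above all PBS mice, but LLC1 1-2 lay among them, below PBS 1-3 and PBS 2-1. The means were 284 ± 52.0 and 207 ± 19.8 CPM (SD, n = 4 each), a log2 fold change of 0.45 (SE 0.12, 95% interval 0.19 to 0.72, FDR = 0.0407 in edgeR's quasi-likelihood test; exact permutation p = 0.0857, two-sided). Without LLC1 1-2 the log2 fold change was 0.58, with an edgeR FDR of 0.00594. The edgeR FDR was 0.104, 0.114 and 0.108 without LLC1 1-3, 1-5 or 2-2, and 0.0645, 0.0802 and 0.0719 without PBS 1-3, 2-1 or 2-5.

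Fbxo31, an F-box protein known for targeting cyclin D1 after DNA damage, had 160, 160, 163 and 181 CPM in the LLC1 mice and 105, 103, 127 and 134 CPM in the PBS mice. All LLC1 mice were above all PBS mice, and LLC1 1-2, 1-3 and 1-5 lay close together with LLC1 2-2 above them. The means were 166 ± 10.1 and 117 ± 15.5 CPM (SD, n = 4 each), a log2 fold change of 0.50 (SE 0.09, 95% interval 0.31 to 0.70, FDR = 0.00777 in edgeR's quasi-likelihood test; exact permutation p = 0.0286, two-sided). Fbxo31 was the only member called with each mouse left out in turn, with an edgeR FDR between 0.00350 and 0.0340. The transcript has a GC content of 58.9%, among the 3190 genes with the highest, and with offsets for GC content its log2 fold change was 0.40 (edgeR FDR = 0.00735).

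Fbxo40 (ENSMUSG00000047746, chromosome 16, 36963460 to 36990467, minus strand), a muscle F-box protein known for turning over IRS1 downstream of IGF1, had 364, 365, 386 and 372 CPM in the LLC1 mice and 418, 374, 390 and 306 CPM in the PBS mice. The LLC1 mice were tightly grouped within the PBS range, with a coefficient of variation of 2.70% against 12.7%. Both means were 372 CPM (SD 10.0 in LLC1 and 47.3 in PBS mice, n = 4 each), and the log2 fold change was -0.0014 (SE 0.09, 95% interval -0.19 to 0.18, FDR = 0.995 in edgeR's quasi-likelihood test).

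Fbxo30 (ENSMUSG00000047648, chromosome 10, 11281330 to 11298052, plus strand), also called MUSA1 and known as a ligase of denervation atrophy, was at 26.3 to 33.8 CPM in LLC1 and 24.0 to 35.3 CPM in PBS mice. Its means were 30.7 ± 3.59 and 29.8 ± 5.04 CPM (SD, n = 4 each), a log2 fold change of 0.05 (SE 0.12, 95% interval -0.22 to 0.31, FDR = 0.850 in edgeR's quasi-likelihood test). This was the lowest level of the 10, and the widest interval of those not called.

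Fbxo21 (ENSMUSG00000032898, chromosome 5, 117976770 to 118010191, plus strand), also called SMART in muscle, had 54.6, 59.4, 51.8 and 59.7 CPM in the LLC1 mice and 43.7, 42.8, 51.5 and 54.0 CPM in the PBS mice. Only PBS 2-5 reached into the LLC1 values, where it lay above LLC1 1-5. The log2 fold change was 0.23 (SE 0.09, 95% interval 0.04 to 0.42, FDR = 0.124 in edgeR's quasi-likelihood test; exact permutation p = 0.0571, two-sided), so Fbxo21 was not called. In a fit with a covariate for the leading digit of the mouse code, its edgeR FDR was 0.0251, at a log2 fold change of 0.29.

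Neither of the ligases outside these families was called. Nedd4 (ENSMUSG00000032216, chromosome 9, 72662346 to 72749852, plus strand) had 602, 632, 598 and 603 CPM in the LLC1 mice and 585, 601, 614 and 583 CPM in the PBS mice. The groups overlapped, and the spread within each was the smallest of the 10 members, with coefficients of variation of 2.55% and 2.52%. The log2 fold change was 0.03 (SE 0.06, 95% interval -0.09 to 0.15, FDR = 0.770 in edgeR's quasi-likelihood test), the narrowest interval of the 10.

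Stub1 (ENSMUSG00000039615, chromosome 17, 25830636 to 25833361, minus strand) had 123, 116, 119 and 115 CPM in the LLC1 mice and 100, 107, 96.5 and 113 CPM in the PBS mice. The groups did not overlap, with LLC1 2-2 just above PBS 2-5. The log2 fold change was 0.18 (SE 0.06, 95% interval 0.04 to 0.32, FDR = 0.108 in edgeR's quasi-likelihood test; exact permutation p = 0.0286, two-sided). Stub1 was not called, although its edgeR FDR was 0.0483 without PBS 2-5. Of its exons, 42.3% are shared with Jmjd8 on the other strand, so that part of this value can be reads of Jmjd8.

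**Figure D4:**
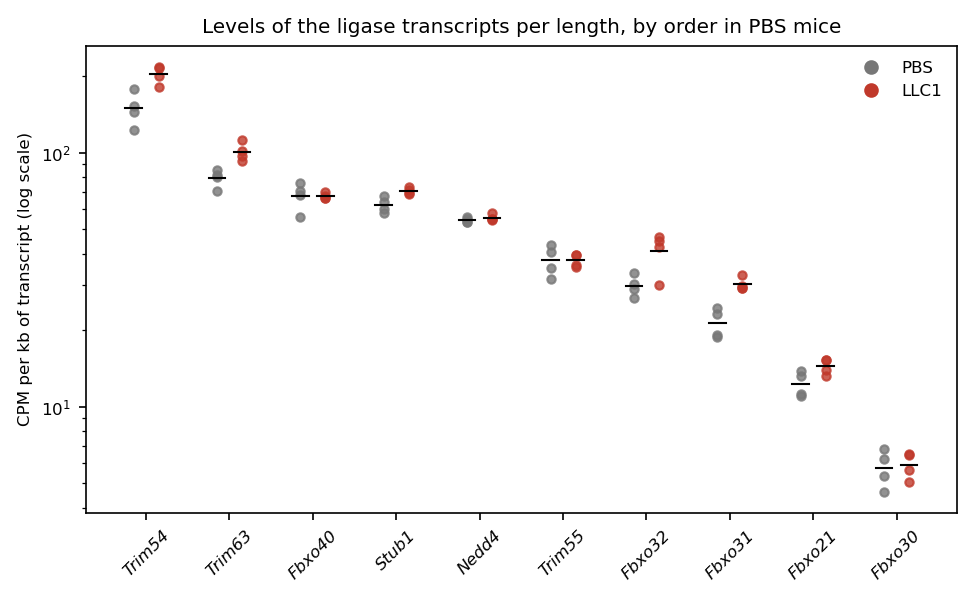
Level of each ligase transcript in CPM per kb of gene length (written as kb of transcript) on a log axis, ordered by the mean of the PBS mice, with a point for each mouse. Trim54 is highest at 149 and Fbxo30 lowest at 5.74 in PBS mice, and the order of neighbours changes in LLC1 mice only for Fbxo40 with Stub1 and Trim55 with Fbxo32.

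As mean CPM per kb of gene length in PBS mice, the order of the levels was Trim54 (149), Trim63 (79.3), Fbxo40 (67.4), Stub1 (62.3), Nedd4 (54.3), Trim55 (37.7), Fbxo32 (29.9), Fbxo31 (21.4), Fbxo21 (12.3) and Fbxo30 (5.74). The values of neighbours overlapped between mice for Trim63 and Fbxo40, for Fbxo40 and Stub1 and for Trim55 and Fbxo32, so those places are not settled by the spread. The order also depends on the lengths used. For Nedd4 (10973 bases) and Trim54 (1436 bases) the length is that of all exons of the gene joined, not of 1 transcript. Before division by length, Nedd4 had the highest mean of the members in PBS mice (596 CPM). In LLC1 mice, Stub1 (70.5) stood above Fbxo40 (67.3) and Fbxo32 (40.9) above Trim55 (37.6). Trim63 was at 101 in these mice.

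Within the groups, the members did not rank the mice alike. Among tumor-bearing mice, Trim63 and Fbxo32 had the same order, LLC1 1-5, 2-2, 1-3 and 1-2 from high to low, whereas Trim54 was highest in LLC1 1-2 and lowest in LLC1 1-5. Among PBS mice, PBS 1-1 was the highest and PBS 2-5 the lowest for Trim63, Trim55, Fbxo30 and Fbxo40, and PBS 2-5 was the highest for Trim54, Fbxo31, Fbxo21 and Stub1. Those control mice also differed across the transcriptome, as the median log2 ratio of PBS 2-5 to PBS 1-1 went from -0.19 to 0.21 between those same GC classes. Trim54, Fbxo31 and Stub1 have a GC content of 59.9%, 58.9% and 60.8%, in the highest class, while Fbxo30, at 38.2%, is in the lowest. Fbxo21 and Trim63, at 53.0% and 52.4%, are in the next-highest class, with a median of 0.16, but had log2 ratios of 0.30 and -0.29. Trim55 and Fbxo40, at 48.2% and 49.6%, are in the middle class, with a median of 0.04, and were both at -0.45, against the trend. Whether GC content had a part in the order of these mice was not tested. Without PBS 1-1 the same 4 members were called by edgeR, whereas without PBS 2-5 Fbxo32 was not called (FDR = 0.0719) and Stub1 was (FDR = 0.0483).

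The trend with GC content and the summed cardiomyocyte markers both moved with the groups. With offsets that removed the GC trend of each library, 1293 genes were called by edgeR, 566 higher and 727 lower, and 3 members were among them, namely Trim54 (log2 fold change 0.34), Fbxo32 (0.51) and Fbxo31 (0.40). In that fit Stub1 was at 0.06 (edgeR FDR = 0.561) and Fbxo30 at 0.18 (edgeR FDR = 0.293). With library sizes set to the summed cardiomyocyte markers, the median of all genes moved to -0.19, and 4085 genes were called, 173 higher and 3912 lower, against 663 and 743 with TMM factors. Of the members, Fbxo31 alone was called (log2 fold change 0.32, edgeR FDR = 0.0280). Relative to that median, Trim63 lay 0.35, Trim54 0.46, Fbxo32 0.46 and Fbxo31 0.51 higher in that fit, and their own log2 fold changes were 0.16, 0.27, 0.27 and 0.32. Trim55, Fbxo30, Fbxo40 and Nedd4 were at -0.18, -0.14, -0.18 and -0.15 in it and Stub1 at -0.0017, none called. Setting new library sizes moves all genes by about the same amount. The distances from the median therefore stay near those with TMM factors and are no further support for a rise. Both settings were chosen after seeing the data.

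The genes known to control these ligases were taken from a list of 30, of which 29 were tested, and 5 passed, against 8.73% of all genes tested. Foxo3, a FOXO factor that drives Fbxo32 and Trim63, rose from 98.1 ± 8.78 to 138 ± 13.3 CPM (SD, n = 4 each), a log2 fold change of 0.49 (FDR = 0.00611 in edgeR's quasi-likelihood test). Klf15, a glucocorticoid-responsive factor, rose from 63.6 ± 9.94 to 107 ± 6.47 CPM, a log2 fold change of 0.75 (edgeR FDR = 0.00167). Igf1, the growth factor whose signal through AKT restrains FOXO, fell from 16.7 ± 1.63 to 10.2 ± 0.505 CPM, a log2 fold change of -0.71 (edgeR FDR = 0.00149). Hdac5, a class II histone deacetylase, and Pik3r1, a regulatory subunit of PI3 kinase, were the others that passed, both higher, at 0.34 and 0.32. Pik3r1 is also on a list of changed transcripts that the study took from these mice. Foxo1 and the glucocorticoid receptor gene Nr3c1 did not pass, with log2 fold changes of 0.04 and -0.21 and edgeR FDR of 0.846 and 0.111.

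Of 18 other genes known to respond to FOXO in atrophy, 6 rose and none fell, where 4.12% of all genes tested were called higher and 4.61% lower. At an unadjusted p under 0.05, 11 were higher and 0 lower, against 12.4% and 13% of all genes, and the median log2 fold change was 0.32. They included Sesn1, a sestrin, at 0.54 (edgeR FDR = 0.000832), Eif4ebp1, a brake on cap-dependent translation, at 0.63 (0.00139), and the autophagy genes Gabarapl1, at 0.58 (0.00139), and Map1lc3b, at 0.30 (0.0136). Map1lc3b has near-identical copies, such as Gm6055 at 99.6% identity over 282 bases, and 28.3% of the Gabarapl1 exons lie opposite another transcript, so part of these counts could belong to those. Gabarapl1, Map1lc3b and others of the 6 are also on the study's list of changed autophagy transcripts from these same mice. The number of calls in this list is therefore not independent evidence. Of 29 known substrates and partners of the members, 27 were tested, of which 4 rose and 1 fell, 18.5% called against 8.73% of all genes tested. Those that rose encode sarcomere or muscle proteins: Mybpc3 (log2 fold change 0.34), a thick-filament protein that MuRF1 degrades, Myh7 (0.44) and Myh6 (0.24), the myosin heavy chains, and Ckm (0.29), muscle creatine kinase. Mybpc3 and Myh6 are also among the cardiomyocyte markers, and Myh6 and Myh7 are 98.3% identical over 465 bases. Ccnd1, the cyclin D1 that Fbxo31 targets, fell from 89.5 ± 18.0 to 42.8 ± 3.45 CPM (SD, n = 4 each), a log2 fold change of -1.06 (edgeR FDR = 0.000781), with 23.4% of its exons opposite LTO1. Of the 4 dividing-cell markers given above, 3 were also called lower, and their part in the Ccnd1 value was not tested. The ligases act on proteins, while all values here are mRNA levels, so those of the substrates do not measure ligase activity.

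The shares called in the 3 lists of shared machinery and other ligases were 6.25%, 5.56% and 11.1%, near the 8.73% of all genes tested. Of 16 gene entries of the SCF core and of neddylation, in which 1 symbol stands under more than 1 identifier, Nedd8 was the only call. Nedd8, the modifier that activates cullins, was higher by a log2 fold change of 0.30 (edgeR FDR = 0.0313), with 14.6% of its exons opposite Gmpr2. The cullin scaffold Cul1 had -0.01 (edgeR FDR = 0.930). Of 18 ubiquitin, E1 and E2 genes, 1 was called by edgeR, higher in LLC1 mice. Of 18 other ligases tied to muscle mass, Ubr2, an N-end rule ligase, was higher by 0.27 and Nedd4l by 0.22 (edgeR FDR = 0.0299 and 0.0423). At an unadjusted p under 0.05 in the edgeR test, 4 of these ligases were higher and 4 lower, against 12.4% and 13% of all genes. In the SCF and neddylation list 3 were higher and 1 lower, and in the ubiquitin, E1 and E2 list 2 were higher and 1 lower. The medians of the 3 lists were -0.03, -0.09 and -0.02. Without LLC1 1-3, LLC1 1-5, PBS 1-3 or PBS 2-1, none of the genes in the 3 lists was called by edgeR, and without LLC1 1-2 or LLC1 2-2 there was 1 call in all.

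The wider families gave a further background. Of 71 other F-box genes, 47 were tested and 0 were called by edgeR, with 6 higher and 3 lower at an unadjusted p under 0.05 and 1 called by DESeq2, at a median log2 fold change of -0.01. Of 64 other Trim genes, 45 were tested, of which 3 fell by edgeR's test, namely Trim59, Trim7 and Trim16, at -1.65, -0.51 and -0.51. None rose. At an unadjusted p under 0.05, 2 were higher and 8 lower, DESeq2 called 1 higher and 3 lower, and the median was -0.09.

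**Figure D5:**
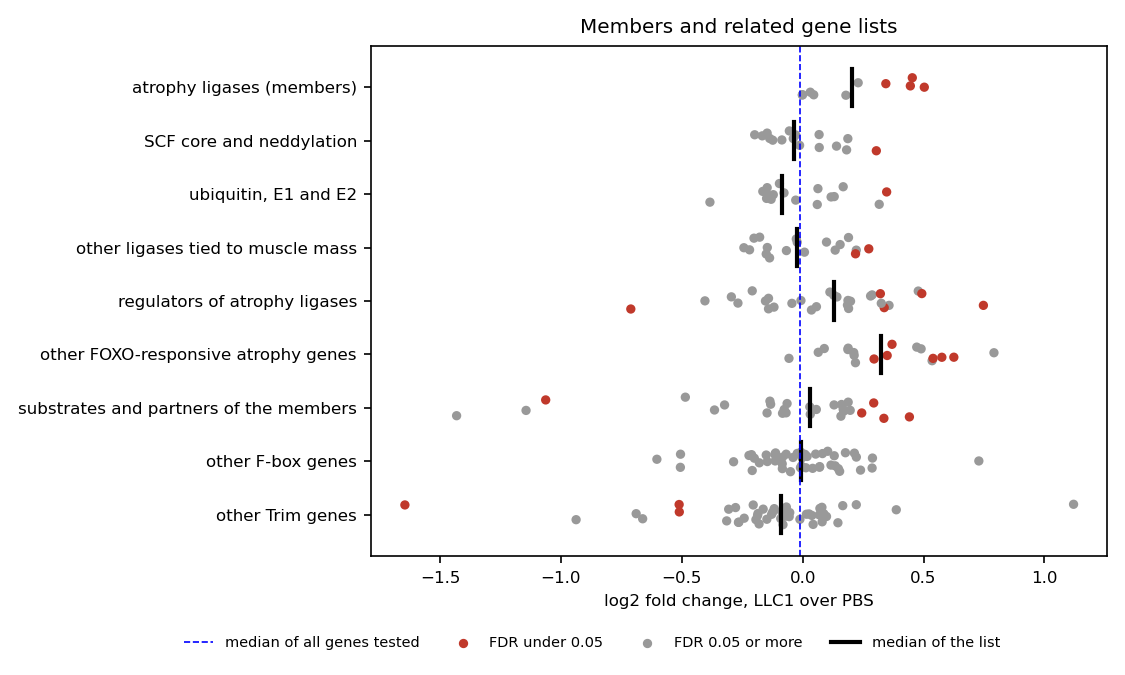
Log2 fold change of LLC1 over PBS mice for the 10 members and for every tested gene of the related lists, 1 point per gene, red where the FDR was under 0.05; black bars are list medians and the dashed line is the median of all genes tested. The members have a median of 0.20 and the FOXO-responsive genes of 0.32, while the other F-box genes lie around -0.01.

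For each member that was called, the genes whose pattern over the 8 mice was nearest were found among 15066 genes of at least 1 CPM, by the root mean square distance between log2 levels centred on their mean. Trim63 was nearest to Zfp949 (distance 0.06 on the log2 scale), Esrrb (0.07) and Acad12 (0.07). Trim54 was nearest to its antisense neighbour Gm15469 (0.05), then Plp2 (0.05) and Dmwd (0.06). Fbxo31 was nearest to Plscr2 (0.05), Tacc2 (0.06) and Slc25a28 (0.06). The pattern of Fbxo32, with its low value in LLC1 1-2, had no gene as near, as Tcp11l2 (0.09), Cp (0.10) and Ppfibp2 (0.11) came closest. No other called member was among these neighbours.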

How the data were processed

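Total RNA from the ventricles of 8 mice was made into TruSeq libraries and read as 150-base paired ends. The authors mapped the reads to mm10, and the values they deposited are whole-number counts for each gene, not normalized; the submitters' processing notes name CASAVA, STAR and featureCounts, and their versions, the annotation and the strand setting are not given in the sources used here. Groups were taken from the stated treatment and compared as unpaired. Each library carries its own code in the labels and was taken as 1 mouse, which they do not state outright; otherwise the p-values cover only the spread between libraries.

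Counts were tested with edgeR 4.0.16 in R 4.3.3 (filterByExpr, TMM factors, estimateDisp, glmQLFit and glmQLFTest) over 16111 genes, with all 8 mice and no covariate, with Benjamini-Hochberg adjustment. The alternatives were DESeq2 1.42.0, scaling to total counts, upper-quartile factors, a low-count filter of 1 count in some mouse, another of 10 counts in each mouse, the leading digit of the mouse code (1 or 2) as a covariate and each mouse left out in turn. Exact permutation tests used the 70 arrangements of the mice on log2(CPM + 0.1). Levels per kb used the gene length in the deposited table. Gene models and exon overlaps came from GENCODE M21, in which 15951 of the genes tested had a GC content, and similar transcripts were searched with BLAST 2.17.0. Other steps ran in Python 3.11.15 (scipy 1.17.1, pandas 2.3.3, numpy 2.4.6, figures with matplotlib 3.10.9). The scripts were tested on simulated data.

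The members, lists and tests were chosen with earlier results of these data known. The genes named are the members, up to 4 called genes of each list with the lowest FDR, and the 3 nearest in pattern to each called member; Pik3r1, Ckm, Foxo1, Nr3c1 and Cul1 were named after their values were seen. The values of a single list gene are not reported here, while the counts include it. Marker lists were summed in CPM: besides those in the report, atrial markers came to 113 to 339 in LLC1 and 123 to 249 in PBS mice, smooth muscle markers to 106 to 166 and 153 to 204, erythroid markers to 1428 to 5180 and 1556 to 3097 and adipocyte markers to 0.503 to 2.19 and 0.236 to 1.63.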

Additional observations from a re-analysis of the deposited data

Results flagged for a closer look

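In 2 of the 22 groups of 4 mice examined, a mouse lay far from the others by Dixon's ratio of its gap to the range of the group, taken at Dixon's 95% critical value; chance gives about 1 in 20. For Fbxo31, LLC1 2-2 was the highest tumor-bearing mouse, with a ratio of 0.874 (181 CPM, against 160 to 163 CPM in the other LLC1 mice). For Nedd4, LLC1 1-3 was the highest, with a ratio of 0.852 (632 CPM, against 598 to 603 CPM). Without LLC1 2-2 the FDR of Fbxo31 in edgeR's quasi-likelihood test was 0.0258, and without LLC1 1-3 that of Nedd4 was 0.931.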

How the results depend on the processing

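No paired analysis was possible because the groups share only 1 replicate code (1-3), which different animals carry. The 4 called members stayed at 4 with DESeq2, upper-quartile factors and both other count filters. They became 2 with total counts (Trim63 and Fbxo31, the edgeR FDR being 0.0856 for Trim54 and 0.0914 for Fbxo32), 5 with the replicate-code covariate, 3 with GC offsets and 1 with cardiomyocyte scaling. Leaving out each mouse in turn gave 1 to 4, with 1 without LLC1 1-3, LLC1 2-2 or PBS 1-3, and 2 without LLC1 1-5 or PBS 2-1. With total counts, 225 of 1018 genes called were higher (22.1%, against 47.2% of 1406). In that setting 0 SCF or neddylation genes, 0 ubiquitin, E1 or E2 genes, 1 other ligase and 2 substrates or partners were called; the covariate gave 2 SCF or neddylation genes and 1 other F-box gene, DESeq2 gave 1 other F-box gene, and the filter of 1 count gave 1 other ligase. Leaving out each mouse gave 542 to 1949 called genes (212 to 908 higher), 0 to 2 SCF or neddylation genes, 0 to 1 ubiquitin, E1 or E2 genes, 0 to 4 other ligases, 4 to 8 regulators, 3 to 8 FOXO-responsive genes, 3 to 7 substrates or partners, 0 to 1 other F-box genes and 1 to 6 other Trim genes. The sign turned for Trim55, Fbxo40, Fbxo30 and Nedd4, with main values of 0.05 or less in size, and for Stub1 (0.18) with cardiomyocyte scaling alone. Trim55 was at 0.000093 with DESeq2, 0.0011 with upper-quartile factors, 0.015 with the filter of 1 count, 0.020 with GC offsets and -0.080 to 0.073 with a mouse left out. Fbxo40 was at 0.00044 with upper-quartile factors, 0.014 with the filter of 1 count and -0.088 to 0.059 with a mouse left out. Fbxo30 was at -0.0034 with total counts and -0.052 to 0.13 with a mouse left out, and Nedd4 at -0.023 with total counts. With cardiomyocyte scaling, Fbxo30 was at -0.14, Nedd4 at -0.15 and Stub1 at -0.0017, while the median of all genes was at -0.19, so that they lay 0.06, 0.04 and 0.19 above it. That scaling moves all genes by about the same amount, so these distances stay near those with TMM factors. The cause of the other changes of sign was not tested. Fbxo30 had the fewest counts of the members, 394 to 610 per mouse.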
